A study of Homo sapiens with 25 samples.

Results

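NCI-H441 is an established human lung adenocarcinoma cell line, and the regions described here are the stretches of its genome where NKX2-1 was bound in that line and in none of NCI-H2087, NCI-H358 and HCC364, also lung adenocarcinoma lines. The 4 NKX2-1 peak lists were merged over chromosomes 1 to 22 and X, and peaks sharing at least 1 bp were joined into 1 region. Of 145799 merged regions, 15244 overlapped a peak of NCI-H441 and no peak of the other 3 lines, which is 10.5% of all regions and 17.1% of the 89303 regions bound in NCI-H441. The remaining NCI-H441 regions were bound in 2 lines (19067), in 3 lines (22458) or in all 4 lines (32534). The study mapped chromatin by ChIP-seq, in which fixed chromatin is pulled down with an antibody and its DNA sequenced, in untreated cells grown in serum-containing medium. NKX2-1, H3K27ac and H3K4me1 were each mapped once per line. For NCI-H2087 there were also FOXA1, FOXA2, SOX2, c-Jun, EP300, RNA polymerase II, H3K4me3 and CTCF libraries. Each line stands for 1 tumour, so a difference between lines has no replicate behind it.

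NKX2-1 is a homeodomain transcription factor that marks lung and thyroid epithelium, drives surfactant genes in alveolar type 2 cells and is often amplified in lung adenocarcinoma. Its DNA-binding domain recognises sites built around the letters CAAG. H3K4me1 is the histone mark of enhancers, whether primed or in use, and H3K27ac marks enhancers and promoters in use. A transcription factor peak that carries neither mark is a bound site without this chromatin signature.

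With 1 library per line and antibody, no replicate test was possible. An exact permutation of the 4 line labels cannot give a p below 0.25. Intervals in brackets are exact Clopper-Pearson 95% intervals and cover counting error over regions only. The lists give no read totals, so depth is unknown and a missing peak means not called at that depth. They held 90578 NKX2-1 peaks in NCI-H441, against 75657 for NCI-H2087, 75747 for NCI-H358 and 87160 for HCC364. The epithelial identity of the lines was visible in H3K27ac within 1 kb of gene ends: NKX2-1, NAPSA, KRT7, KRT8, EPCAM and CDH1 were marked in all 4 lines, and SFTPB in all but NCI-H358. Among genes of other cell types, COL1A1 was marked in all 4 lines and CD3E in all but HCC364. PTPRC, PECAM1 and ALB were not marked in any line.

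The members were chosen by whether an NKX2-1 peak was called in each line, so peak strength is given as a description only. The authors' peak fold, pileup over local background, had a median of 6.56 at the NCI-H441-only regions, with quartiles of 5.21 and 8.75 and a range of 2.58 to 62.2. At the 74059 NCI-H441 regions shared with another line the median was 10.1, and at regions bound in all 4 lines it was 13.5. The NCI-H441-only regions were also narrower, with a median width of 368 bp against 691 bp for shared regions. Of the members, 11756 (77.1%) had a −log10 q of at least 10 and 2.24% were under 5, against 92.0% and 0.633% of the shared regions, so members were the weaker calls. Just inside the rule, 23 members lay within 50 bp of another line's peak and had a median fold of 4.54. Just outside it, 16 NCI-H441 peaks overlapped another line's peaks by at most 50 bp and had a median fold of 4.36.

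The 10 members with the highest fold show what the strong end looks like. The strongest, with a fold of 62.2, lay inside ANKS1B (chr12:99139747-99140733, hg38), a gene for a neuronal scaffold protein. The next lay inside RNF121, which encodes a ubiquitin ligase, with a fold of 58.1, and inside VWA5B1 with a fold of 56.2. A region 157 kb from INHBB, the gene of an activin and inhibin subunit, had a fold of 52.2, and one 4.51 kb from UBE2J1, a ubiquitin-conjugating enzyme of the endoplasmic reticulum, also had 52.2. Next were a region 220 kb from TFEC with a fold of 50.5 and one in TRIB2 with 45.0. Regions 1.54 kb from CYP2D6, 13.6 kb from ZCCHC14 and 0.498 kb from CLASP1 followed, with folds of 44.8, 44.6 and 42.7. All 10 carried H3K4me1 in NCI-H441, and the regions at ANKS1B, VWA5B1, UBE2J1 and CLASP1 also carried H3K27ac there. None of the 10 carried H3K27ac in another line, and in H3K4me1 only the INHBB and TRIB2 regions were marked elsewhere, both in NCI-H358. Their nearest NKX2-1 peak of another line lay between 1.97 kb (RNF121) and 20.3 kb (VWA5B1) away.

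Promoters were few among these regions, and 6 of them are shown because they are the most strongly bound promoters that also carried H3K27ac in NCI-H441. Promoter windows reached from 250 bases before to 50 after each gene's start in RefSeq on GRCh38.p14, and 154 of 15812 windows (0.974%) overlapped a member. TMPRSS11D encodes an airway trypsin-like protease, and its member had a fold of 19.0. CXCR3 encodes a chemokine receptor, and its member had a fold of 17.9. The members at THAP3 and GPATCH2L both had a fold of 16.1, that at the galectin gene LGALS9C had 13.9, and that at the helicase gene DDX43 had 13.2. The regions at TMPRSS11D, CXCR3, GPATCH2L and LGALS9C carried H3K27ac in NCI-H441 alone. The THAP3 region was also acetylated in NCI-H358 and HCC364, and the DDX43 region in NCI-H358. LGALS9C has near-identical relatives in the genome, so its reads may be uncertain. The 200 bases before each start follow, 5′ to 3′ on the gene's strand, with each CAAG (or CTTG, its reverse complement) in capitals; all 200 lie inside the bound region except at GPATCH2L, where the last 20 do.
TMPRSS11D, chr4:67884003-67884202, minus strand: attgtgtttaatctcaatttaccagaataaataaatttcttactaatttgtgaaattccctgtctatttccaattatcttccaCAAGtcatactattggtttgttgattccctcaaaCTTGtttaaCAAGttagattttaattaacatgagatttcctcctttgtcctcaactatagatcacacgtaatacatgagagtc
CXCR3, chrX:71618512-71618711, minus strand: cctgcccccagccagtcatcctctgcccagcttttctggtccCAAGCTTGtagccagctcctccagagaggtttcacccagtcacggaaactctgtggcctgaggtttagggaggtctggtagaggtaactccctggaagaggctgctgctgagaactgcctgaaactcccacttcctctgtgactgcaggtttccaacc
THAP3, chr1:6624668-6624867, plus strand: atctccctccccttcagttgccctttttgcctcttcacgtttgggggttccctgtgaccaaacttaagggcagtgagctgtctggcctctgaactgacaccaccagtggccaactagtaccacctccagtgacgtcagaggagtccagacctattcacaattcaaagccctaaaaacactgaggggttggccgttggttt
GPATCH2L, chr14:76154154-76154353, plus strand: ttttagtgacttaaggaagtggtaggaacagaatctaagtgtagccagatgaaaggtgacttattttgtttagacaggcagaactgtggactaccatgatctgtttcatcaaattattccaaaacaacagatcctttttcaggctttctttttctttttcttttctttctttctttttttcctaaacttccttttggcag
LGALS9C, chr17:18476589-18476788, plus strand: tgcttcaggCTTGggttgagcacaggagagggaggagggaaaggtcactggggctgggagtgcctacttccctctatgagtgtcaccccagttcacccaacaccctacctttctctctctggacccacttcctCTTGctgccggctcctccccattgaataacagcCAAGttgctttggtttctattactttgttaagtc
DDX43, chr6:73394628-73394827, plus strand: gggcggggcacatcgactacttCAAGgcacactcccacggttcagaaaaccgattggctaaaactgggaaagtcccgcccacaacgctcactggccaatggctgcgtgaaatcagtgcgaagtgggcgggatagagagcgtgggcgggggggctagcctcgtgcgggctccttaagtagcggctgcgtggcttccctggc

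TMPRSS11D and LGALS9C held 3 CAAG cores each, CXCR3 held 2 that adjoin as a palindrome, DDX43 held 1, and THAP3 and GPATCH2L held 0. The longer letters CAAGTG and CTCAAG, searched on both strands, occur in none of the 6 stretches. CAAGTG also fits the E-box letters CANNTG. The core is common: 72.7% of the promoters overlapping a member held it in these 200 bases, against 71.0% of those overlapping a region bound in all 4 lines and 69.8% of all promoters. In the whole window, 9.74% of the 154 promoters held CAAGTG and 12.3% held CTCAAG, against 10.0% and 11.2% of all promoters. The shares of promoters bound in NCI-H441 alone were thus within 3 points of those of promoters in general. Of the 154, 109 overlapped a member with H3K27ac in NCI-H441, 14 of them with H3K27ac in NCI-H441 alone. Of the same 154, 100 overlapped a member with an H3K4me3 peak in NCI-H2087, a line without NKX2-1 binding there. The corresponding shares over all promoters were not computed, so these counts are a description only.

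Most NCI-H441-only regions lay over 1 kb from the ends of protein-coding genes. Only 832 of 15244 (5.46%, interval 5.10 to 5.83) lay within 1 kb of the annotated start or end of any protein-coding gene, where the share over all merged regions was 10.5%. The share was 7.84% in the NCI-H2087-only set, 5.58% in the NCI-H358-only set, 8.46% in the HCC364-only set and 18.5% at regions bound in all 4 lines. Within 1 kb of a gene's start lay 2.47%, against 7.24% of all merged regions. Gene bodies covered 51.8% of the NCI-H441-only regions, close to the 52.8% of all merged regions. Over 50 kb from any protein-coding gene lay 21.0%, against 21.9% of all merged regions. The median distance to a gene start was 54555 bp for members, 57592 bp for all merged regions and 41663 bp for regions bound in all 4 lines. It was 66965 bp in the NCI-H2087-only set, 98732 bp in the NCI-H358-only set and 64941 bp in the HCC364-only set. The members were thus few within 1 kb of gene ends but not unusually far from genes. Of the 1549 microRNA hairpins in RefSeq, 6 overlapped a member and 64 a region bound in all 4 lines. These counts are not adjusted for number or width. The 15244 members had a median width of 368 bp, and the 32534 regions bound in all 4 lines had 872 bp.

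The median distance from a member to the nearest NKX2-1 peak of another line was 5175 bp. Such a peak lay within 5 kb of 49% of members, although only 5.23% had one within 500 bp. No baseline was computed for this distance, so it is a description only. To the nearest region bound in all 4 lines the median was 21033 bp, and 20.4% of members lay within 5 kb of one. The same share was 21.4% in the NCI-H2087-only set, 21.6% in the NCI-H358-only set and 17.2% in the HCC364-only set.

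The enhancer marks, which the choice of members did not use, were more frequent at these regions in NCI-H441 than in the lines without binding. H3K27ac overlapped 3537 members in NCI-H441 (23.2%, interval 22.5 to 23.9), against 1354 (8.88%) for NCI-H2087, 1174 (7.70%) for NCI-H358 and 1353 (8.88%) for HCC364. The corresponding shares over all merged regions were nearly level, at 33.0%, 33.2%, 32.0% and 34.6%. H3K4me1 overlapped 8697 members in NCI-H441 (57.1%, interval 56.3 to 57.8), against 3129 (20.5%) for NCI-H2087, 3612 (23.7%) for NCI-H358 and 3914 (25.7%) for HCC364. Over all merged regions, H3K4me1 was found at 52.7%, 43.1%, 48.9% and 49.1%. The NCI-H441 share of H3K27ac was 14.7 points above the mean of the other 3 lines, and that of H3K4me1 was 33.8 points above. The other lines lay within a few points of each other for both marks, and NCI-H441 lay outside their range.

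**Figure D1:**
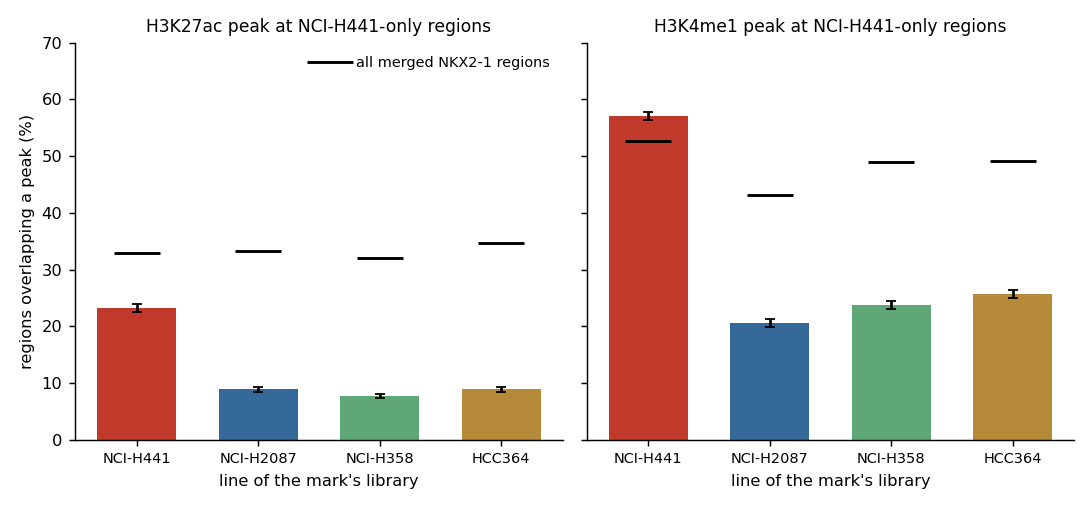
Share of the 15244 NCI-H441-only NKX2-1 regions that overlap an H3K27ac (left) or H3K4me1 (right) peak of each line, in percent, with exact 95% intervals as error bars; black dashes give the share over all 145799 merged NKX2-1 regions. The NCI-H441 bars, 23.2% and 57.1%, stand above those of the other 3 lines, and in H3K27ac even NCI-H441 stays under its 33.0% for all regions.

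The same contrast in the private sets of the other lines puts these values in scale. H3K27ac in a line's own private set exceeded the mean of the 3 lines without binding by 14.7 points in NCI-H441, 16.6 for NCI-H2087, 24.7 for NCI-H358 and 25.7 for HCC364. NCI-H441 was the lowest of the 4 in this difference and in the own-line share of 23.2%, against 27.3% for NCI-H2087, 35.0% for NCI-H358 and 36.3% for HCC364. As a ratio of own share to the mean of the others it was not the lowest, at 2.73 for NCI-H441, 2.56 for NCI-H2087, 3.41 for NCI-H358 and 3.42 for HCC364. Nor was it the lowest in H3K4me1: the own-line share was 57.1% in NCI-H441, against 47.5% for NCI-H2087, 66.3% for NCI-H358 and 55.0% for HCC364. The own-line median peak folds were alike, at 6.56, 6.10, 5.89 and 6.51. These differences between sets of single libraries have no test.

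The 2 marks sorted the members into classes. In NCI-H441, 3102 members (20.3%) carried both marks, 5595 (36.7%) H3K4me1 only, 435 (2.85%) H3K27ac only and 6112 (40.1%) neither. H3K4me1 without H3K27ac was therefore the largest marked class, unlike at the NCI-H441 regions shared with another line, where 45.5% carried both marks and 29.7% H3K4me1 only. Members without either mark made up 76.9% for NCI-H2087, 74.2% for NCI-H358 and 72.2% for HCC364.

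Acetylation of a member was often private to NCI-H441, but not always. Of the 3537 members acetylated in NCI-H441, 1833 (51.8%) were acetylated in no other line, 786 in 1 other, 510 in 2 and 408 in all 3. The 1833 are 12.0% of members, while 3.04% of all merged regions had H3K27ac in NCI-H441 alone. A further 698 members were acetylated in another line and not in NCI-H441, and 11009 (72.2%) in no line. H3K4me1 was in NCI-H441 alone at 3408 members (22.4%), where the share over all merged regions was 5.86%. In no line was H3K4me1 found at 5536 members (36.3%).

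The acetylated members were either part of a domain shared with other binding or an acetylated peak of their own. There were 937 in an NCI-H441 H3K27ac peak that also held an NKX2-1 region bound in another line, and 73.9% of these were acetylated in another line too. The other 2600, or 73.5% of the acetylated members, lay in H3K27ac peaks without such a region, and 38.9% of these were acetylated in another line. The 2609 NCI-H441 H3K27ac peaks of this second kind had a median fold of 6.0 and a width of 783 bp, against 5.82 and 560 bp for the 9490 peaks without any NKX2-1 region. The 880 peaks that held both kinds of NKX2-1 region had a median fold of 20.0 and a width of 3147 bp, against 9.53 and 1298 bp for the 34249 peaks with a shared region and no member.

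The gap between NCI-H441 and the other lines was widest at the most strongly bound members. In the decile of members with the highest fold (12.2 to 62.2), 38.0% carried H3K27ac in NCI-H441, against 3.87% for NCI-H2087, 3.93% for NCI-H358 and 4.07% for HCC364. In the decile with the lowest fold (2.58 to 4.39), the shares were 27% in NCI-H441, against 17.5%, 16.6% and 17.8% in the same 3 lines. H3K27ac in NCI-H441 was lowest in the sixth decile, at 17.5%. H3K4me1 was found at 79.3% of the highest decile in NCI-H441, against 12.6% for NCI-H2087, 13.1% for NCI-H358 and 16.8% for HCC364. In the lowest decile it was at 55.7% in NCI-H441, against 28.7%, 34.6% and 35.3%. Width moved with fold, with a median of 572 bp in the highest decile and 309 bp in the lowest. A wider region can meet a mark peak more readily, and the part of width in the NCI-H441 rise was not tested. The lowest decile also held more regions within 1 kb of a gene end, 9.51% against 5.31% in the highest.

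**Figure D2:**
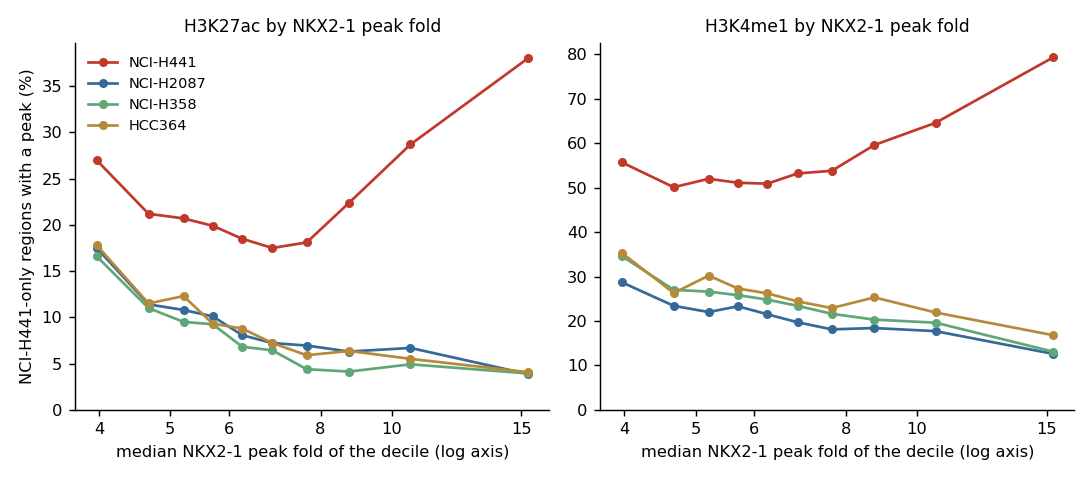
Share of NCI-H441-only regions with an H3K27ac (left) or H3K4me1 (right) peak of each line, in percent, for 10 equal groups ordered by NKX2-1 peak fold in NCI-H441 (log axis, 1 point per group). The NCI-H441 line ends at 38.0% and 79.3% in the strongest group, while the other lines end at 3.87 to 4.07% and 12.6 to 16.8%.

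Position in the gene also went with the marks. At the 832 members within 1 kb of a gene end, H3K27ac was found at 48.6% in NCI-H441, against 30.3% for NCI-H2087, 29.8% for NCI-H358 and 30.8% for HCC364. In gene bodies the shares were 23.8% in NCI-H441, against 9.22%, 7.56% and 10.5%. Outside genes they were 19.6% in NCI-H441, against 5.98%, 5.22% and 4.53%. H3K4me3, a promoter mark, was present in NCI-H2087 at 35.2% of the members near gene ends, against 1.36% of those outside genes.

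The partner factors mapped in NCI-H2087 were scarce at these regions, in a line where NKX2-1 itself was not called there. FOXA1 overlapped 1287 members (8.44%), where its share over all merged regions was 32.5%, and FOXA2 overlapped 1687 (11.1%, against 36.2% of all). FOXA1 and FOXA2 are forkhead pioneer factors of lung epithelium. Either of them was found at 1847 members (12.1%, against 38.0%), while the share was 13.7% in the NCI-H358-only set and 8.87% in the HCC364-only set, which NCI-H2087 also lacks. c-Jun, an AP-1 subunit, overlapped 222 members (1.46%, against 15.2%), and SOX2, a foregut transcription factor, overlapped 12 (0.0787%, against 6.08%). The acetyltransferase EP300 overlapped 10 (0.0656%, against 4.87%), RNA polymerase II 590 (3.87%, against 15.4%) and H3K4me3 544 (3.57%, against 14.5%). All merged regions include those bound in NCI-H2087, which the rule keeps out of the members. The NCI-H358-only and HCC364-only sets, which NCI-H2087 also lacks, had shares under those of all merged regions too. In that order they were 0.913% and 0.906% for c-Jun, 0.121% and 0.0392% for SOX2, and 0.136% and 0.167% for EP300. For RNA polymerase II they were 4.97% and 6.26%, and for H3K4me3 7.63% and 11.2%. The scarcity covers NCI-H2087 only, since no such library of NCI-H441 was used.

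FOXA occupancy in NCI-H2087 marked members that carried enhancer marks more widely. The same split was not made for all merged regions or the other private sets, so it describes the members only. With FOXA1 or FOXA2 there, H3K4me1 was found at 70.6% of members in NCI-H441, against 40.7% for NCI-H2087, 40.1% for NCI-H358 and 34.3% for HCC364. Without them it was found at 55.2% in NCI-H441, against 17.7%, 21.4% and 24.5%. H3K27ac in NCI-H441 was found at 29.6% of members with FOXA1 or FOXA2 and 22.3% of those without, against 16.6% and 7.82% in NCI-H2087.

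CTCF, the insulator protein that anchors chromatin loops, overlapped 1260 members in NCI-H2087 (8.27%, interval 7.83 to 8.71), against 19.7% of all merged regions. The shares were 11.5% in the NCI-H358-only set and 23.5% in the HCC364-only set. The members at CTCF sites had a median fold of 5.75 and carried H3K4me1 in NCI-H441 in 37.5% of cases and H3K27ac in 18.3%. The other 13984 had a median fold of 6.71, H3K4me1 in 58.8% and H3K27ac in 23.6%.

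Across the genome, the NCI-H441-only share of NCI-H441 regions varied between chromosomes. It was highest on X, at 25.2% of 2262 regions (interval 23.4 to 27), then on 18 at 23.8%, 6 at 21.4%, 16 at 21.2% and 20 at 20.3%. On 20, 82 of the 455 members lay in a stretch of 223 kb that is described below as uncertain. The NCI-H441-only share was lowest on 15, at 12.0% (interval 10.7 to 13.3), and on 9 at 14.2%. The local background behind each peak, solved from its fold and p, is given beside it. Relative to each library's median, the background was 0.709 in NCI-H441 on X, against a mean of 0.729 over the other 3 lines, and on 15 it was 0.769 in NCI-H441, against 1.07. Over the 23 chromosomes, Spearman's rho between the member share and the mean background of the other 3 lines was -0.59 (Pearson's r -0.65), and -0.53 without X. With the background of NCI-H441 itself rho was -0.29, and -0.19 without X. With NCI-H441 over the mean of the other 3 lines it was 0.48, and 0.56 without X. Chromosomes share libraries and differ in gene content and copy level, so this is a description, and the part of copy level in the member share was not tested.

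**Figure D3:**
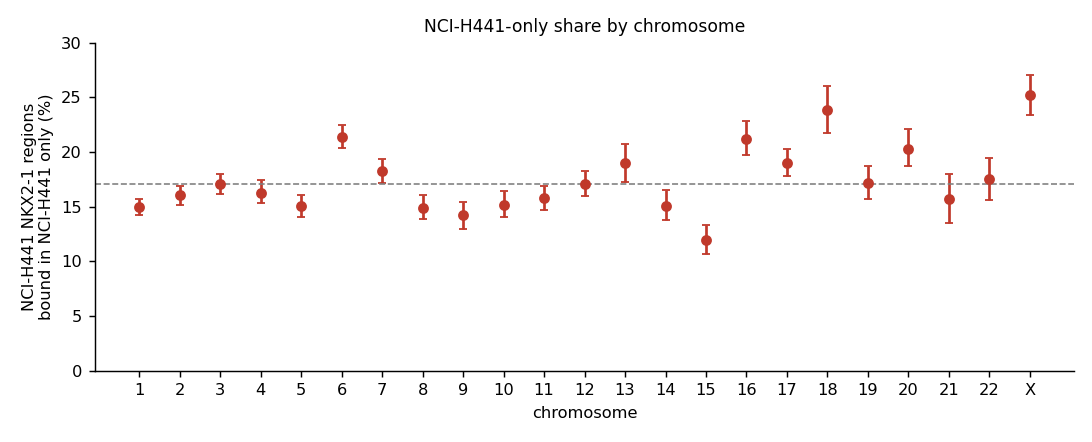
Percent of the NCI-H441 NKX2-1 regions on each chromosome that were bound in NCI-H441 only, with exact 95% intervals; the dashed line is the share over all chromosomes, 17.1%. X (25.2%) and 18 (23.8%) stand highest and 15 (12.0%) lowest.

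At the scale of 1 Mb, 2107 bins held at least 15 NCI-H441 regions, with a median member share of 15.8% and a 5th to 95th percentile range of 4.38% to 33.3%. The highest bins were neighbours on chromosome 20, from 29 to 31 Mb, where 91.8% and 85.7% of NCI-H441 regions were members. In 81 bins, not limited to those with at least 15 NCI-H441 regions, another line had no peak of NKX2-1, H3K27ac or H3K4me1. NCI-H2087 accounted for 53 of them, NCI-H358 for 31 and HCC364 for 4, and some bins lacked peaks in more than 1 line. Those bins held 257 members (1.69%), or 33.3% of their 771 NCI-H441 regions. There a lost segment and an unbound one cannot be told apart, and without these bins the member count was 14987.

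Most members stood alone. A run joined members with gaps of at most 10 kb and no region of another line between them, and 12553 members were in no run, 2116 were in pairs and 575 (3.77%, interval 3.48 to 4.09) were in 158 clusters of 3 or more. The share in clusters was 2.70% in the NCI-H2087-only set, 3.95% in the NCI-H358-only set and 5.29% in the HCC364-only set. H3K27ac in NCI-H441 was found at 38.1% of clustered members, 28.2% of those in pairs and 21.7% of single ones, with median folds of 6.82, 6.78 and 6.50.

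Much the densest group lay on chromosome 20. Within 223 kb (chr20:29910738-30134152, hg38), 82 members fell into 3 clusters of 44, 18 and 20 regions, and the largest cluster in another line's private set held 13. Their median fold of 6.24 was near that of all members, 46 carried H3K27ac in NCI-H441 and 15 carried H3K4me1, so acetylation without H3K4me1 was common here. The other lines had no H3K27ac or H3K4me1 peak in the stretch, and 1 NKX2-1 peak in all, in HCC364, with a local background of 37.1 where that library's median was 3.24. The median NCI-H441 NKX2-1 background in the stretch was 3.72, against 4.03 over all its peaks. The nearest annotated protein-coding gene, LOC124904970, lay 679 kb away. Whether reads map uniquely in this stretch, and its copy level in each line, were not tested, so these 82 regions may be uncertain as private binding sites. Without this block the clustered share was 3.25%, and the largest remaining clusters held 5 regions.

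Among the smaller clusters, 3 held 5 regions each. In WWOX, a gene for a WW-domain oxidoreductase that spans a common fragile site, 5 members within 17.6 kb (chr16:78950090-78967667) had a median fold of 17.2 and a highest of 33.9, and 4 carried both H3K27ac and H3K4me1 in NCI-H441. On chromosome 11 near 50 Mb, 5 members 217 kb from the olfactory receptor gene OR4C12 had a median fold of 9.47. Of these, 4 carried H3K4me1 and 1 carried H3K27ac in NCI-H441. The 1 Mb bin that holds this cluster had no peak of NCI-H358, and 2 of NCI-H2087, for NKX2-1, H3K27ac and H3K4me1 together. For NCI-H358, a lost segment and an unbound one cannot be told apart there. In SLC22A23, a solute carrier gene, 5 members had a median fold of 6.78 and 3 carried H3K27ac. Among the 4-region clusters named here, which are those with the longest spans, that near IRX2 had the highest median fold, 12.7, with H3K4me1 at all 4 and H3K27ac at 2. The clusters in CADPS and RASA4B and that at TMEM50A and RHCE had median folds of 7.22, 4.46 and 5.85. RASA4B and RHCE have close copies in the genome, so their peaks may be uncertain. Over these 7 smaller clusters, no member carried H3K27ac in another line, and at CADPS and RASA4B none carried it in NCI-H441 either. H3K4me1 did occur in other lines. At TMEM50A and RHCE it was at 4 members in HCC364 and 1 in NCI-H441. At SLC22A23 it was at 2 members in NCI-H2087 and 1 in HCC364. At RASA4B it was at 1 member in each other line, and at CADPS at 1 in HCC364.

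Assigning each member to its nearest protein-coding gene, no farther than 50 kb away, placed 12042 members (79.0%). Members fell to 6701 genes (33.5% of 19974), and 1203 genes (6.02%) had 3 or more, against 657 for the NCI-H2087-only set, 855 for the NCI-H358-only set and 1698 for the HCC364-only set. The genes with the most members were long, and NKX2-1 regions of other lines outnumbered the members at all 20 leading genes. DLG2, a synaptic scaffold gene of 2173 kb, had 22 members among 96 merged regions. WWOX had 19 among 56, and the receptor phosphatase gene PTPRD had 16 among 60. At PTPRD, NKX2-1 regions numbered 32 in NCI-H441, 41 in HCC364, 8 in NCI-H358 and none in NCI-H2087. The bin from 8 to 9 Mb on chromosome 9, which covers part of it, held no peak of NCI-H2087 or NCI-H358. HS6ST2, which encodes a heparan sulfate sulfotransferase, had 14 among 33, and NKX2-1 regions numbered 30 in NCI-H441, 11 for NCI-H2087, 12 for NCI-H358 and 8 for HCC364.

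Next came DAB1, the adaptor of reelin signalling, and LPP, a focal adhesion gene, with 14 members each, and the presynaptic scaffold gene ERC2 with 13. SNX29, the potassium channel genes KCNQ3 and KCNQ5, the photoreceptor matrix gene EYS and AUTS2 had 12 each. AUTS2 had 36 regions in NCI-H2087, 39 in HCC364 and none in NCI-H358. The guidance cue gene SEMA3A, the RAC activator gene TIAM1, the junction scaffold gene MAGI1, SND1, ZNF407 and the DNA repair gene RAD51B had 11 each. FUT8 and NALF1 had 10 each. The share of members among a gene's regions ran from 8.73% at RAD51B to 42.4% at HS6ST2 in this group.

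**Figure D4:**
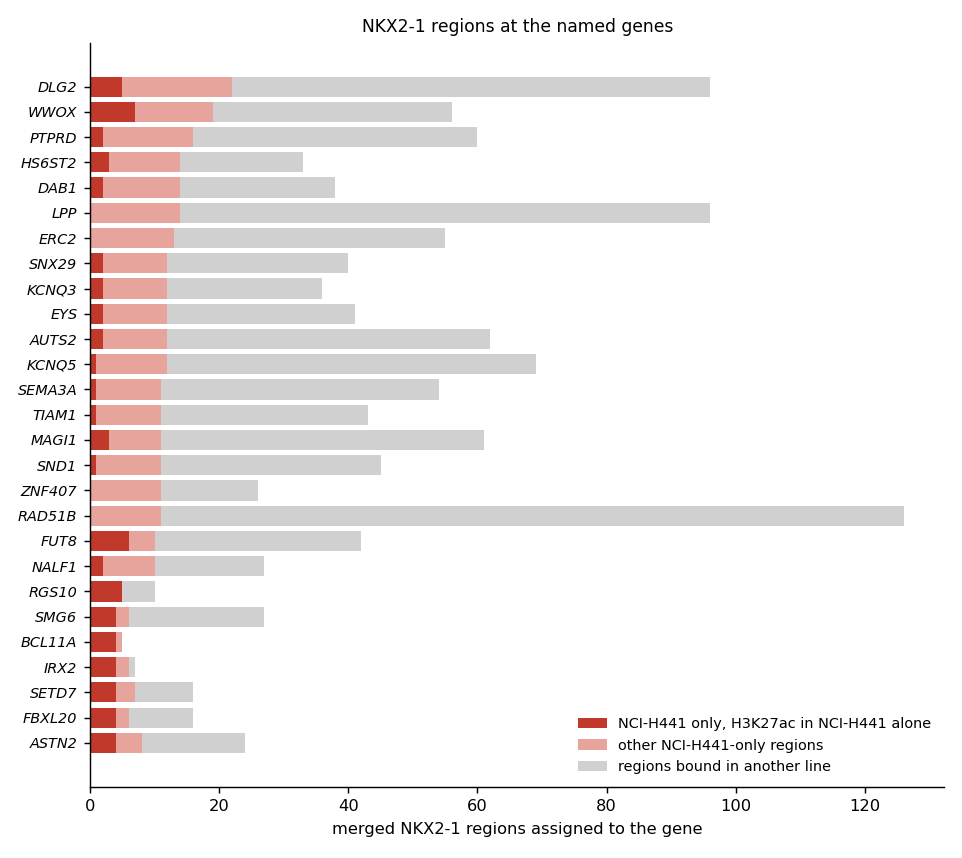
Merged NKX2-1 regions assigned to each named gene (nearest gene within 50 kb), as counts: NCI-H441-only regions with H3K27ac in NCI-H441 alone (dark red), other NCI-H441-only regions (light red) and regions bound in another line (grey). The long genes at the top are mostly grey, while all 5 regions of BCL11A and 6 of 7 at IRX2 are NCI-H441-only.

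Ranking by members with H3K27ac in NCI-H441 alone also brought up shorter genes. WWOX had 7 and FUT8, which encodes the fucosyltransferase of core N-glycan fucose, had 6. RGS10, a regulator of G protein signalling, and DLG2 had 5 each. SMG6, an endonuclease gene of nonsense-mediated decay, BCL11A, IRX2, the lysine methyltransferase gene SETD7, the F-box gene FBXL20 and ASTN2 had 4 each. Over all genes, 1216 had at least 1 such member and 39 had 3 or more.

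BCL11A encodes a zinc finger repressor known for silencing fetal globin genes. It was 1 of 4 genes with 3 or more members and no NKX2-1 region of another line within 50 kb, beside GNG5B with 7 members, NFATC1 with 5 and FOLH1 with 3. Within 50 kb of BCL11A lay 6 members. The strongest, inside the gene (chr2:60515614-60516989), had a fold of 16.3 and H3K27ac in NCI-H441 alone, with H3K4me1 in NCI-H441 and HCC364. A second at chr2:60512559-60513474 had a fold of 5.42 and both marks in NCI-H441 alone. Near the gene's start, the members chr2:60550386-60550765 and chr2:60553382-60553713 had folds of 6.75 and 9.34 and H3K27ac, without H3K4me1, in NCI-H441 alone. The other 2, with folds of 5.22 and 4.41, carried neither mark in any line. An end of BCL11A was acetylated in NCI-H441 and in none of the other 3 lines.

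IRX2 encodes an Iroquois homeodomain factor. NKX2-1 regions assigned to it numbered 7 in NCI-H441, 1 in NCI-H2087 and none in NCI-H358 and HCC364. The strongest of its 6 members (chr5:2757695-2758519), 6.02 kb from the gene, had a fold of 32.6, and another 49.4 kb away (chr5:2685537-2686198) had 21.3. The other folds were 14.5, 10.9, 3.99 and 3.89. H3K27ac was present at 4 of the 6 in NCI-H441 and at none in another line, and H3K4me1 at 5 in NCI-H441 and at none in another line. An end of IRX2 was itself acetylated in NCI-H441, NCI-H2087 and HCC364 and not in NCI-H358.

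RGS10 had 10 assigned regions, all bound in NCI-H441, of which 5 were members. The members at chr10:119496224-119496784, chr10:119497258-119497598, chr10:119499323-119499836 and chr10:119500281-119501335 lay in the gene or up to 3.03 kb from its end and had folds of 8.43, 11.2, 9.60 and 16.4. The fifth (chr10:119532684-119533352), inside the gene, had a fold of 15.8. All 5 carried H3K27ac in NCI-H441 alone and H3K4me1 in NCI-H441. H3K4me1 was found in another line at the fifth only, in NCI-H2087.

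In FBXL20, 4 of 6 assigned members carried H3K27ac in NCI-H441 alone, with folds of 31.3, 19.8, 16.0 and 5.57. A member inside the gene with a fold of 21.9 carried H3K4me1 only, so a high fold did not by itself go with acetylation. In SETD7, 4 members with folds from 6.70 to 8.39 carried H3K27ac in NCI-H441 alone, although H3K4me1 was present at each of them in at least 1 other line.

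Lists of lung, epithelial and control genes were counted by members within 50 kb, beside all protein-coding genes, of which 60.0% had at least 1 member, with a mean of 1.26 and a median of 1.00 per gene. Among alveolar type 2 genes 14 of 15 had a member, with a mean of 2.2, and among alveolar type 1 genes 9 of 10, also with a mean of 2.2. Keratin and junction genes of epithelium had one at 13 of 14, with a mean of 2.71, and basal and squamous genes at 9 of 10, with a mean of 2.50. MAPK output and feedback genes had one at 12 of 14 (mean 2.14) and ciliated genes at 7 of 8 (mean 1.5). These lists are also rich in NKX2-1 binding in general. NCI-H441 regions averaged 9.93 per alveolar type 2 gene and 15.4 per keratin or junction gene, against 7.56 over all genes. Regions private to NCI-H2087, NCI-H358 and HCC364 averaged 1.13, 0.733 and 2.40 per alveolar type 2 gene. For keratin and junction genes these means were 1.36, 1.79 and 1.14, and over all genes 0.649, 0.835 and 1.52. Nearby genes of a list can share members, so a list mean can count a member more than once. At the other end, neuroendocrine genes had a member at 3 of 10 (mean 0.400), airway secretory genes at 4 of 10 (mean 0.50) and gastric, intestinal and liver genes at 6 of 14 (mean 0.571). These lists also had few NCI-H441 regions in general, averaging 2.60, 4.90 and 5.64 per gene.

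The remaining lists lay between. Lung and foregut transcription factors had a member at 10 of 15 (mean 2.07), AP-1 genes at 6 of 9 (mean 1.67), thyroid genes at 4 of 8 (mean 1.75), and WNT and NOTCH genes at 9 of 16 (mean 1.5). Iroquois and other homeobox genes had one at 8 of 14 (mean 1.14), mesenchymal genes at 6 of 10 (mean 1.10) and immune genes at 6 of 10 (mean 0.90). Housekeeping genes, a control list, had one at 7 of 10, with a mean of 1.20.

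Within the alveolar type 2 list, PGC, whose product cleaves surfactant protein B precursor, had 8 members within 50 kb. PGC had 11 NKX2-1 regions in NCI-H441, against 2 for NCI-H2087, 2 for NCI-H358 and 3 for HCC364. The strongest of its members (chr6:41757921-41758326) had a fold of 12.5 and neither mark in any line, and the 3 acetylated members were all acetylated in NCI-H2087 as well. No end of PGC was acetylated in any line. SFTPA1, a surfactant protein A gene, had 4 members, and its regions numbered 9 in NCI-H441, 7 for NCI-H2087, none for NCI-H358 and 4 for HCC364. Its member chr10:79580789-79581287 had a fold of 12.5 and H3K27ac in NCI-H441 alone, and chr10:79629070-79629583 had a fold of 7.90 and H3K27ac in NCI-H441 and NCI-H2087. SFTPA1 has a near-identical neighbour, SFTPA2, so reads there may be uncertain. ABCA3, the lipid transporter of lamellar bodies, had 4 members, and none was acetylated in NCI-H441.

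Among keratins, KRT8 had 7 members, of which 4 were acetylated in NCI-H441, and KRT7 had 5, of which 4 were. KRT8 regions numbered 32 in NCI-H441, 23 for NCI-H2087, 20 for NCI-H358 and 14 for HCC364. The tight junction gene CLDN7 had 4 members, 3 of them acetylated in NCI-H441. Of the basal genes, TP63, the squamous lineage factor, had 6 members among 37 NCI-H441 regions, with 3 of the members acetylated. Another 9 regions there were private to NCI-H358. An end of TP63 was acetylated in NCI-H358 and not in NCI-H441 or the other lines. KRT14 also had 6 members. The one with a fold of 14.3 (chr17:41608378-41608922) carried both marks in NCI-H441 alone, although no KRT14 end was acetylated in any line. A member near a gene thus did not imply an acetylated gene end.

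In the other lists, FOXP1 had 10 members (1 acetylated) among 64 NCI-H441 regions, and KLF5 had 5 (3 acetylated) among 15. Both are epithelial transcription factors of lung. FOXP1 also had 5 regions private to NCI-H2087, 5 to NCI-H358 and 9 to HCC364. SPRED2, a feedback inhibitor of the MAPK pathway, had 8 members (4 acetylated) among 36 NCI-H441 regions. EREG, an EGFR ligand, had 4 members (3 acetylated) among 15. SLC26A4, the anion exchanger pendrin of thyroid and airway, had 7 members (1 acetylated) among 12. CDX2, the intestinal homeobox factor, had 3 members and an acetylated end in NCI-H441 and in no other line; its regions numbered 4 in NCI-H441, 1 in NCI-H2087 and none in NCI-H358 and HCC364. The member 7.66 kb from CDX2 (chr13:27952939-27953261) had a fold of 7.79 and H3K27ac in NCI-H441 alone, and that with the highest fold, 12.7, carried neither mark in any line. NKX2-8, a neighbour and relative of NKX2-1, had 3 members with 2 acetylated.

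Gene ends acetylated in NCI-H441 alone were more frequent the more members lay nearby. Over all 19974 protein-coding genes, 147 (0.736%) had H3K27ac within 1 kb of an end in NCI-H441 and in no other line. The share was 2.56% of the 821 genes with 5 or more members within 50 kb (interval 1.59 to 3.88), 1.18% with 2 to 4, 0.602% with 1 and 0.325% of the 7993 genes with none (interval 0.213 to 0.476). Of the 147 genes, 121 (82.3%) had a member within 50 kb, against 60.0% of all genes. The same order held in each other line with its own private set: the shares for 5 or more and for none were 7.0% and 0.799% in NCI-H2087, 5.39% and 0.579% in NCI-H358, and 7.93% and 1.16% in HCC364. Gene length moved with the count, with a median of 102 kb for genes with 5 or more members and 17.7 kb for genes with none, and its part in the pattern was not tested. A member may also be the NKX2-1 peak of the acetylated end itself.

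**Figure D5:**
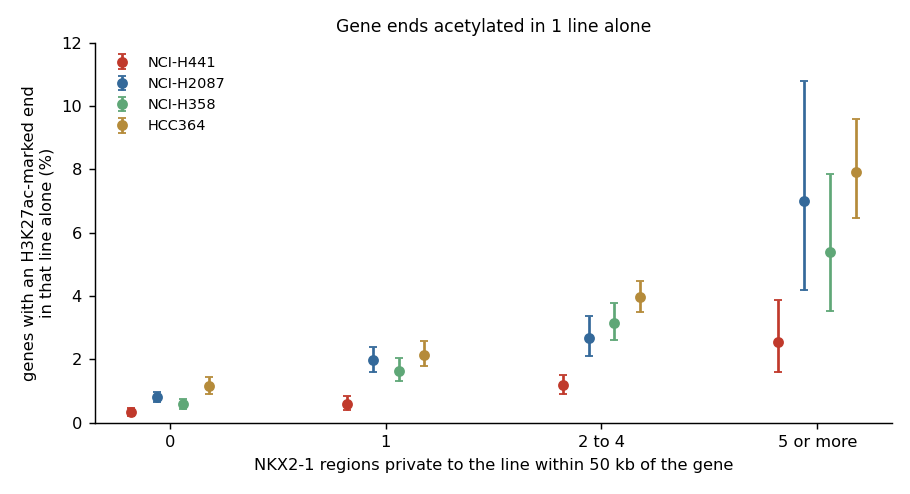
Percent of protein-coding genes with H3K27ac within 1 kb of a gene end in 1 line alone (vertical axis), by the number of NKX2-1 regions private to that line within 50 kb (horizontal axis), with exact 95% intervals. In NCI-H441 the share is 0.325% with none and 2.56% with 5 or more, and all 4 lines run the same way.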

How the data were processed

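ChIP-seq peak lists of 20 libraries from 4 cell lines were used, and 5 input libraries were not analysed here. The submitters' processing notes name MACS2 (versions 2.1.1 and 2.2.7.1), bedtools, Bowtie2 2.2.9, SAMtools 1.9 and Trimmomatic 0.36, with genome build hg38; the role of each MACS2 version and the use of inputs are not given in the sources used here. In the deposited lists each peak has a fold ratio over local background, a −log10 p and a −log10 q, as the authors' caller gave them, and the lowest −log10 q in each list was at or just above 3.00. Peaks off chromosomes 1 to 22 and X (0.0610% to 0.502%) were left out.

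From these, regions were merged at 1 bp of overlap, and a mark or factor was present where its peak overlapped a region by 1 bp. Local background was solved from fold and p, within 0.01 for 100% of peaks. Genes and promoters came from RefSeq (GRCh38.p14), and 79.2% of genes had a start, so gene ends were used for position. Python 3.11.15, pandas 2.3.3 and SciPy 1.17.1 were used, and merging, runs and solving were tested on simulated data. Members, gene lists and naming rules were chosen with earlier results of these data known. Named were the 20 genes with most members, the 10 with most members acetylated in NCI-H441 alone, the 10 largest clusters, the 10 highest folds, up to 3 genes per list and 6 promoters. GNG5B, NFATC1 and FOLH1, and the choice of which named genes to describe region by region, were made after their values were seen. Lines were compared as shares with exact 95% binomial intervals and no test. Alternatives varied thresholds, list length, overlap, windows and summits. 1 marker of the other cell types is not reported here.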

Additional observations from a re-analysis of the deposited data

How the results depend on the processing

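Of 76 values under alternatives, 48 moved by less than their intervals or, for counts, by less than 1.5 times, 28 moved and 0 reversed. With the 75000 strongest NKX2-1 peaks of each list, H3K27ac in NCI-H441 was 25.2% and 17.7 points above the other lines, H3K4me1 61.9% and 39.0 points, gene ends 4.44%, clusters 2.62% and genes with 3 or more members 708. With a −log10 q of at least 10 in NCI-H441, the H3K27ac difference was 16.4 points, H3K4me1 59.1% and 37.1 points, gene ends 4.50%, clusters 2.98% and genes 799. With no peak of another line within 500 bp, H3K27ac was 21.6%, H3K4me1 55.7% and gene ends 5.05%. With 500 bp summit windows, H3K27ac was 26.7%, H3K4me1 59.7%, gene ends 6.25% and FOXA1 or FOXA2 13.4%. With marks or factors within 500 bp, these were 26.8% and 61.7% for the marks and 15.0% for FOXA1 or FOXA2, and with mark peaks at a −log10 q of at least 5 they were 22.4% and 54.8% for the marks. Gene ends were 19.1% within 5 kb, and clusters 6.16% with gaps of at most 20 kb. Chosen after seeing the data, leaving out the chromosome 20 block gave clusters of 3.25%, and leaving out 1 Mb bins without any peak of another line moved none of the 9 results. The cause of these moves was not tested, except that fewer regions or wider windows follow from some settings. No paired analysis was possible because each line had 1 library per antibody and the results come from no test. Peak lists hold no read totals, so weak binding in another line cannot be told from none.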
